A study of Homo sapiens with 6 samples.

Results

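The genes examined here encode phase II conjugating enzymes, that is glutathione S-transferases (GSTs), sulfotransferases (SULTs) and UDP-glucuronosyltransferases (UGTs). They were chosen by symbol alone, as every gene on the array whose symbol follows the numbered naming of the alpha, mu, theta, pi, omega, kappa or zeta GSTs, the microsomal GSTs MGST1 to MGST3, the SULTs or the UGTs. This gave 43 of the 81496 gene symbols on the array, measured by 47 of 135750 transcript probe sets. Where a gene had more than 1 probe set, the brightest on average over the 5 compared arrays stands for it, and the 4 second probe sets are given beside it.

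Total RNA was profiled on Clariom D arrays from 2 human cell lines. MCF10.AT1 belongs to the MCF10A series of breast epithelial cells, where it stands for a preneoplastic stage, and is described as untreated and sensitive to fluvastatin, and MCF10.AT1-R was selected from it by raising the fluvastatin dose from 1 µM through 5 µM up to 20 µM. Both were grown in the same MCF10.AT1 medium, and whether fluvastatin was present when RNA was taken is not given in the sources used here. Each line has 3 arrays, called biological replicates, and MCF10.AT1-R is a single derived line, so that any difference is between these 2 lines and not between resistance and sensitivity in general. The question behind the comparison was which genes differ once resistance to a statin has been acquired. Arrays A01 to A03 hold MCF10.AT1, and B02 to B04 hold MCF10.AT1-R. The study removed A03, so the lines were compared with 2 arrays against 3, and A03 is given apart. All values are on the log2 scale and come from RMA, which subtracts background, brings the arrays to 1 distribution by quantile normalization and combines the probes of each probe set.

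Phase II enzymes attach a polar group to drugs, hormones and reactive products of metabolism, which makes them soluble and ready for export. GSTs add glutathione to electrophiles, SULTs move sulfate from the donor PAPS to hydroxyl groups of steroids and phenols, and UGTs of the endoplasmic reticulum add glucuronic acid from UDP-glucuronic acid to bilirubin, steroids and many drugs, statins among them. The liver and intestine express most of the UGTs, while in breast epithelium the pi-class GST and the sulfation of oestrogen are the best known members of this system.

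The 5 arrays compared correlated with each other at r = 0.967 to 0.977 over all transcript probe sets, whereas A03 correlated with them at 0.779 to 0.795. A level was called above background in a line when every array of the line exceeded the 95th percentile of the 612 negative control probe sets on that array, a log2 value of 2.88 to 3.15. All 10 markers of basal breast epithelium were above background in both lines, and 6 of them, KRT17 and KRT14 among them, were called higher in MCF10.AT1-R. The sum of the 10 basal markers was 68.2 to 69.1 in MCF10.AT1 and 83.5 to 84.0 in MCF10.AT1-R. Among the 8 luminal markers 3 were called higher, with sums of 41.3 to 41.4 and 46.4 to 47.7. Among the 8 markers of cornifying keratinocytes 3 were called higher, with sums of 22.5 to 22.9 and 27.9 to 30.0. The test, described below, covered 9 basal, 6 luminal and 4 keratinocyte markers, and called 0.758% of all probe sets tested higher. Of the 8 hepatocyte markers 3 were above background in both lines, namely CPS1, APOA1 and SERPINA1. ALB, APOB, TF, FGB and TTR were above background in neither line. The sums of the 8 were 24.0 to 24.6 in MCF10.AT1 and 23.3 to 24.2 in MCF10.AT1-R. The oestrogen receptor gene ESR1, the leukocyte marker PTPRC and the keratinocyte markers LOR and FLG were not above background in either line. The part of these epithelial differences in the values of the conjugating enzymes was not tested. All MCF10.AT1 arrays carry the letter A and all MCF10.AT1-R arrays the letter B, so that anything these letters stand for and the line cannot be told apart. In bulk RNA of this kind, fewer cells of a type and less RNA per cell cannot be told apart.

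Of the 43 genes, UGT1A1 was called higher in MCF10.AT1-R and the sulfotransferase genes SULT1E1 and SULT1B1 were called lower. No other gene of the group passed the test. UGT1A1 went from a level within the negative controls to a log2 mean of 5.66 ± 0.32 (SD, n = 3), and SULT1E1 from 4.36 ± 0.02 (n = 2) to 2.65 ± 0.51 (n = 3). In their chosen probe sets, the GSTs that these cells express, from GSTP1 to the microsomal MGST1, MGST2 and MGST3, differed by 0.69 or less on the log2 scale. A second probe set of MGST1 differed by -0.85 and was not called.

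The test was limma on the 51457 transcript probe sets that passed a filter on low and invariant values, with Benjamini-Hochberg adjustment and a false discovery rate (FDR) of 5%. Over all of them 620 were called, which is 1.2%, with 390 higher (0.758%) and 230 lower (0.447%) in MCF10.AT1-R. Of the 43 genes 20 passed the filter, 15 were removed for a low mean and 8 for a small spread alone. The 3 calls were thus 15% of the 20 genes tested, and 4 of the 20 had an unadjusted p under 0.05, the fourth being MGST3, against 8.26% of all probe sets tested. SULT1B1 passed the limit on the mean, 1.88, only through MCF10.AT1, with a mean of 3.01 there and 1.33 in MCF10.AT1-R. Such a gene enters the test because it differs, so its call adds nothing to these shares. Because limma drew 1 common SD of 0.34 for every tested probe set, each difference below has an SE of 0.31 on the log2 scale unless the gene was removed by the filter, in which case its value comes from the fit without filter. For 13 of the 43 genes no MCF10.AT1 array reached the range of the resistant arrays, 7 higher and 6 lower in MCF10.AT1-R (30.2%, against 23.3% of all transcript probe sets). The median difference of the 43 genes was -0.01, against 0.01 over all transcript probe sets.

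The plot of the differences by gene places the families in the order of the text that follows, with the 3 called genes in red. Of the 43 genes 14 were above background in both lines, SULT1E1 in MCF10.AT1 alone and UGT1A1 in MCF10.AT1-R alone. The remaining 27 were above background in neither line. Of these, 23 did not exceed the limit on any of the 5 arrays, and SULT1B1, GSTA4, GSTA5 and GSTM2 exceeded it on some of them. Among the 16 genes above background in a line, 9 had arrays without overlap between the lines, of which 6 were higher and 3 lower in MCF10.AT1-R. This is 56.2% of the 16, against 32.5% of the 34768 probe sets above background in a line. UGT1A1 and SULT1E1 are among the 9 and entered the 16 through 1 line alone, which favours arrays without overlap. The share is therefore a description, and no conclusion is drawn from it. The median difference of the 16 was 0.03, and 13 of them differed by less than 0.5 in size.

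UGT1A1 encodes the UGT that conjugates bilirubin in the liver. Its log2 value was 2.59 on A01 and 2.66 on A02, and 6.0, 5.35 and 5.62 on B02, B03 and B04. The 3 resistant arrays lay above both MCF10.AT1 arrays with no overlap, and both MCF10.AT1 values lay under the limits of their arrays, 3.14 and 3.03. The means were 2.62 ± 0.05 (SD, n = 2) and 5.66 ± 0.32 (n = 3), a difference of 3.03 (SE 0.31, 95% interval 2.42 to 3.64, adjusted p = 4.7e-19 by limma). Since the MCF10.AT1 level is only bounded by the negative controls, the gene was at least 5.95-fold higher in MCF10.AT1-R, counting each MCF10.AT1 array at its limit. A03 gave 1.27, also under its limit. UGT1A1 was past FDR 5% under 15 of 16 alternative settings, with adjusted p from 2.98e-23 to 0.0663, and missed it when A03 was added to MCF10.AT1 (0.0663, difference 3.48).

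The common SD makes the adjusted p of a gene depend on the variance model. For UGT1A1 the adjusted p by limma was 0.00517 with the filter on low values alone and 0.00272 with no filter. With values raised to the limit of their array it was 0.0132. With the filter on low values alone and a variance that follows the level, a setting chosen after seeing the data, it was 7.79e-06. The UGT1A locus is a set of alternative first exons joined to shared later exons, and in RefSeq (GRCh38.p14) the 9 UGT1A genes share 1 end. Only UGT1A1 of these 9 matched a symbol on the array by the naming rule, so the probe set may collect transcripts of other UGT1A genes, and the measured rise cannot be assigned to 1 first exon. The probe sets of the UGT1A pseudogenes UGT1A2P, UGT1A11P, UGT1A12P and UGT1A13P, which lie among the first exons, had differences of 0.06, 0.12, -0.51 and -0.05. UGT1A2P exceeded the limit on 1 of the 5 arrays and the other pseudogenes on none, and only UGT1A2P passed the filter and was tested, so these values say little about their transcripts.

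The 11 UGT2 and UGT3 genes gave no such pattern. UGT2 enzymes conjugate steroids, bile acids and drugs in liver and other tissues, and the UGT3 enzymes use other sugar donors. Every value of these 11 genes on the 5 arrays lay between 0.85 and 2.40, under the limit of its array. UGT2B4, the one with the highest mean, read 2.29 and 2.10 on A01 and A02 and 2.28, 2.28 and 2.04 on B02, B03 and B04, and the arrays overlapped. Differences ranged from -0.18 for UGT2B10 to 0.28 for UGT2B7, and none was called. At such levels a difference between the lines was not detectable on these arrays.

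SULT1E1 encodes the oestrogen sulfotransferase, which inactivates oestradiol at low concentrations. It read 4.34 on A01 and 4.37 on A02, and 3.18, 2.16 and 2.60 on B02, B03 and B04. All 3 resistant arrays lay below both MCF10.AT1 arrays, and of the 3 only B02 exceeded its limit of 2.88. The difference was -1.71 (SE 0.31, 95% interval -2.32 to -1.10, adjusted p = 1.36e-05 by limma), and with each resistant array taken no lower than its limit the gene was at least 2.51-fold lower in MCF10.AT1-R. A03 gave 3.08, under its limit of 3.15 and below B02. The adjusted p ranged from 4.55e-06 to 0.777 over the 16 alternatives, and 13 of them kept the gene past FDR 5%. The exceptions were the filter on low values alone (0.12), no filter (0.127) and A03 added (0.777).

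SULT1B1 encodes a sulfotransferase for thyroid hormones and small phenols. It read 3.41 and 2.61 on A01 and A02, and 1.35, 1.73 and 0.90 on B02, B03 and B04, with no overlap. Only A01 exceeded its limit, so the difference of -1.68 (SE 0.31, 95% interval -2.29 to -1.07, adjusted p = 2.13e-05 by limma) lies mostly within the range of the negative controls. With values raised to the limit of their array the difference shrank to -0.29 (adjusted p = 0.216), and with 1 floor for all arrays to -0.21 (0.659). Without A01 the difference was -1.28 and without A02 -2.08, and the gene then did not pass the filter and was not tested. Over the alternatives the adjusted p ranged from 3.27e-06 to 0.777, with 8 of 16 past FDR 5%. A03 gave 2.46, between the other arrays of its line and the resistant arrays.

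**Figure D1:**
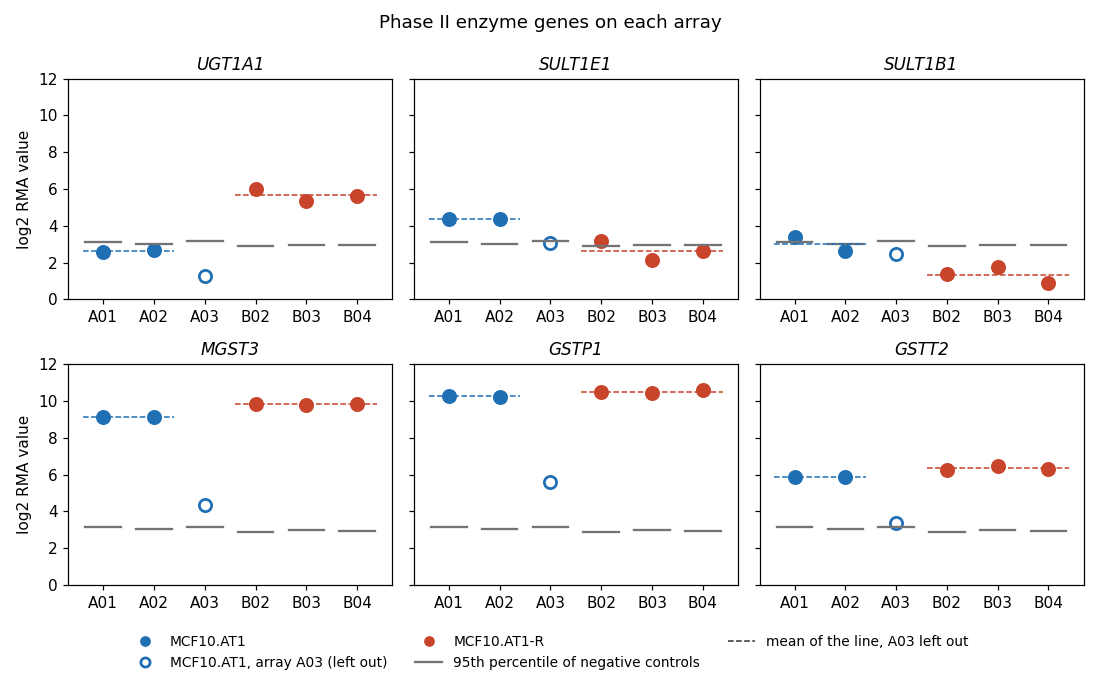
The log2 RMA value (y axis) of 6 genes is plotted on each array (x axis), with MCF10.AT1 in blue, MCF10.AT1-R in red and A03 as an open circle. Dashed lines give the mean of a line without A03, and grey bars the 95th percentile of the negative controls on each array. UGT1A1 rises above the grey bars on the 3 resistant arrays, SULT1E1 lies close to or under them there and SULT1B1 under them, and MGST3, GSTP1 and GSTT2 lie above them on all arrays, with A03 far below the other 5.

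The plot of values by array shows how close the lower levels of UGT1A1, SULT1E1 and SULT1B1 lie to the negative controls. SULT1B1 and SULT1E1 are next to each other among the protein-coding genes of chromosome 4 in RefSeq, with the pseudogene SULT1D1P between them. Of the 4 protein-coding genes on either side of the pair, UGT2A1 was not matched to a symbol, and UGT2B28, UGT2B4, UGT2A2, CSN1S1, CSN2, STATH and HTN3 did not exceed the limit on any of the 5 arrays. Their differences ranged from -0.06 for STATH to 0.26 for UGT2B28. The promoters of the 2 sulfotransferase genes called lower are given to show the sequence in front of each start, although SULT1B1 was above background in neither line. They come from RefSeq (GRCh38.p14), as 250 bases before to 50 bases after the gene's start, 5′ to 3′ on the gene's strand. Capitals mark matches, on either strand, to the TATA box core TATANA, to TGACNNNGC (the core of the antioxidant response element bound by NRF2, the product of NFE2L2) or to GCGTG (the core of the xenobiotic response element bound by the aryl hydrocarbon receptor). The promoter of MGST3, a GST gene described further on, follows for comparison.
SULT1E1, chr4:69860096-69860395, minus strand: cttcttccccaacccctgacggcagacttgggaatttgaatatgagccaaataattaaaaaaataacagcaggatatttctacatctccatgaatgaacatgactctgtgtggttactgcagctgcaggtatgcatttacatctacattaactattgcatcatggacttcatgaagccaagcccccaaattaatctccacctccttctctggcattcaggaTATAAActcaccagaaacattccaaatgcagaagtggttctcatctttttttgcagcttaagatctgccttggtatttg
SULT1B1, chr4:69760571-69760870, minus strand: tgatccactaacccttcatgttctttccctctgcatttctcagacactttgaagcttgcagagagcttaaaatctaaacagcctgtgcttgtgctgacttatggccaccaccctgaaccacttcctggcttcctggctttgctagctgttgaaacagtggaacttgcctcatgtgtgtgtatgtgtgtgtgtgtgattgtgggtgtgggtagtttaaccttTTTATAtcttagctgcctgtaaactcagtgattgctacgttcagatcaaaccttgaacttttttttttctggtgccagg
MGST3, chr1:165630984-165631283, plus strand: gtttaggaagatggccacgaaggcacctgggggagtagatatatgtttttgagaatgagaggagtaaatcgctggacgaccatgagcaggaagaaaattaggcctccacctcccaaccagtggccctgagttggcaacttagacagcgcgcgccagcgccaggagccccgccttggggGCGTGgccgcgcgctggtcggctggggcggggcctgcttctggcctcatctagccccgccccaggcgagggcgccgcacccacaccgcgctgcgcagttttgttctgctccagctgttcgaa

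Both sulfotransferase windows hold 1 match to TATANA, whose first base lies at -29 from the start in each. On the gene's own strand it reads TATAAA in SULT1E1, and in SULT1B1 the match TTTATA is the reverse complement. Neither window holds the antioxidant or the xenobiotic core. The MGST3 window holds no TATA core and 1 xenobiotic core at -72. Windows were found for 35 of the 43 genes, 39 in all. The antioxidant core was in 9 of the 39, against 13.3% of all 35116 RefSeq promoters searched. The xenobiotic core was in 8 of the 39, against 36.5% of those 35116 promoters. The TATA core was in 14 of the 39, against 19% of the 35116. The TATA core was added to the search after the sequences had been seen. The UGT1A1 window holds neither response element core, and that of GSTP1 holds 1 antioxidant core. These matches describe letters in a window and were not tested against expression.

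The other 10 sulfotransferase genes did not pass the test. SULT1A1, SULT1A2 and SULT1A4 encode the phenol sulfotransferases, SULT2B1 sulfates cholesterol and other steroids, and SULT4A1 is found mainly in brain. These 5 were above background in both lines. SULT1A4 read 5.43 and 5.34 on A01 and A02 and 5.06, 5.29 and 5.11 on B02, B03 and B04, so that the resistant arrays lay below the others by a small margin (difference -0.23, 95% interval -0.66 to 0.20, adjusted p = 0.869). The sign turned to 0.28 when A03, at 3.86, was added. The SULT1A genes are near-identical copies, and probes may not separate them. SULT1A1, SULT1A2, SULT2B1 and SULT4A1 differed by -0.01, -0.40, 0.06 and 0.29, with overlapping arrays. SULT1C2, SULT1C3, SULT1C4, SULT2A1 and SULT6B1 did not exceed the limit on any of the 5 arrays.

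Among the cytosolic GSTs, GSTP1, the pi-class enzyme that is the usual GST of breast epithelium, read 10.26 and 10.24 on A01 and A02 and 10.48, 10.43 and 10.57 on B02, B03 and B04. The lines did not overlap. The difference was 0.24 (95% interval -0.17 to 0.66, adjusted p = 0.857), a fold of 1.18, and the gene had been removed by the filter for its small spread. A03 gave 5.59 for GSTP1, far below every other array.

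GSTK1, a kappa-class enzyme of mitochondria and peroxisomes, read 5.11 and 5.14 on A01 and A02 and 5.48, 5.40 and 5.83 on B02, B03 and B04. It was higher on all 3 resistant arrays, by 0.44 (95% interval -0.17 to 1.05, adjusted p = 0.789). GSTT2, a theta-class enzyme with a near-identical copy GSTT2B next to it in the genome, showed the same order, with 5.86 and 5.87 on A01 and A02 and 6.26, 6.45 and 6.28 on B02, B03 and B04. The difference was 0.46 (95% interval -0.15 to 1.08, adjusted p = 0.77), and its second probe set gave 0.31, again with all 3 resistant arrays above the others. None of these differences was past FDR 5%.

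The omega-class genes, whose products reduce dehydroascorbate and other oxidised substrates, overlapped between the lines. GSTO1 read 7.69 and 7.51 on A01 and A02 and 7.35, 7.42 and 7.57 on B02, B03 and B04, a difference of -0.15 (95% interval -0.59 to 0.28). It read 1.47 on A03, and with A03 added the sign turned to 1.89. GSTO2 differed by -0.09.

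The mu and alpha classes, abundant in liver, were near or under background. GSTM4 was the only mu gene above background in both lines, with 3.93 and 3.43 on A01 and A02 and 3.21, 3.67 and 3.65 on B02, B03 and B04, overlapping arrays and a difference of -0.17 (95% interval -0.78 to 0.44), which turned to 0.48 with A03, at 1.73, added and to 0.09 without A01. GSTM2 differed by -0.46 near its limit, with the resistant arrays below the others, and by -0.15 in its second probe set, which was under the limit on all 5 arrays. GSTM1, GSTM3 and GSTM5 did not exceed the limit on any of the 5 arrays. GSTA4, the alpha-class enzyme that conjugates the lipid peroxidation product 4-hydroxynonenal, read 3.03 and 3.48 on A01 and A02 and 3.31, 2.83 and 3.31 on B02, B03 and B04, with overlap, and exceeded the limit on 3 of the 5 arrays. GSTA1, GSTA2 and GSTA3 did not exceed it on any of the 5 arrays, and the 5 alpha genes differed by -0.32 to -0.03. GSTZ1, a zeta-class enzyme of tyrosine breakdown, read 2.76 and 1.89 on A01 and A02 and 2.34, 2.02 and 2.22 on B02, B03 and B04, all under the limit. Several mu and alpha genes are close copies of each other, so their probe sets may share signal.

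The microsomal GSTs are small membrane enzymes that conjugate glutathione and reduce lipid hydroperoxides. MGST3 read 9.15 and 9.15 on A01 and A02 and 9.86, 9.81 and 9.85 on B02, B03 and B04. The lines were separated by a gap many times wider than the spread within them, since the SD was 0.01 (n = 2) and 0.02 (n = 3). The difference was 0.69 (SE 0.31, 95% interval 0.08 to 1.30), a fold of 1.61, and with the common SD it missed FDR 5% (adjusted p = 0.481 by limma). When the variance was allowed to follow the level, the same difference passed with an adjusted p of 6.1e-12, and with the filter on low values alone and that variance model it was 1.19e-04. The adjusted p ranged from 6.1e-12 to 0.942 over the 16 alternatives, of which 3 were past FDR 5%. Its second probe set read 3.60 and 3.64 on A01 and A02 and 3.77, 3.67 and 3.76 on B02, B03 and B04, a difference of 0.11 in the same direction.

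MGST1 and MGST2 differed less in their chosen probe sets. MGST1 read 8.85 and 8.83 on A01 and A02 and 8.73, 8.46 and 8.65 on B02, B03 and B04, with the resistant arrays lower (difference -0.23, 95% interval -0.66 to 0.21). With A03 added, at 2.23, the sign turned to 1.98. Its second probe set read 4.48 and 3.52 on A01 and A02 and 3.10, 3.12 and 3.21 on B02, B03 and B04. That gave a larger difference of -0.85 (95% interval -1.46 to -0.24, adjusted p = 0.239), so the probe sets of MGST1 shared a direction and differed in size. MGST2 differed by 0.15 (95% interval -0.27 to 0.58), with its 3 resistant arrays above the others.

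**Figure D2:**
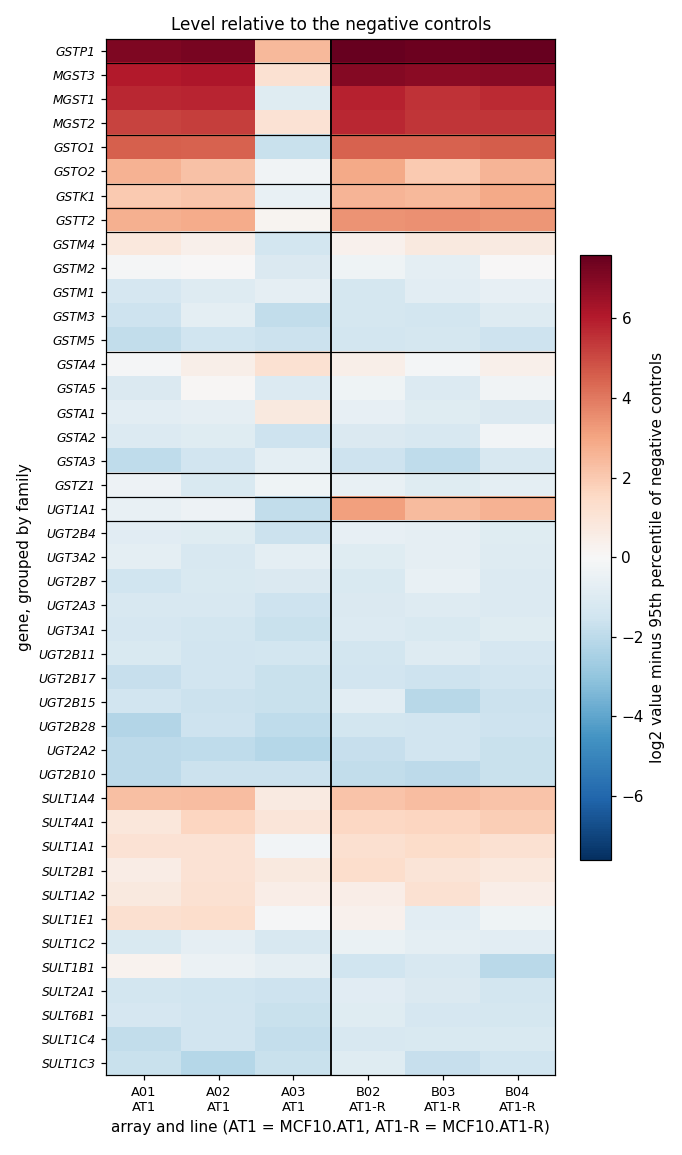
Each cell gives the log2 value of a gene (rows, grouped by family) on an array (columns) minus the 95th percentile of the negative controls on that array, red above and blue below it. UGT1A1 turns from blue to red between the lines, the microsomal, pi and omega GSTs are red on the 5 arrays compared, and the UGT2 and UGT3 rows are blue throughout.

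In the map of levels relative to the negative controls, the colours are read along a row, since probe sets differ in brightness for reasons other than abundance. The A03 column stands out. It held the lowest of the 6 values for 21 of the 43 genes, and for 12 of the 16 above background in a line, and the highest for 7. On A03 10 of the 43 genes were above its limit of 3.15. MGST1 was under the limit there, where the other MCF10.AT1 arrays read 8.85 and 8.83. MGST3 read 4.33 there and GSTK1 2.57. Adding A03 to MCF10.AT1 left none of the 43 genes past FDR 5% in limma and 3 at an unadjusted p under 0.05 (3.42% of all probe sets tested), with 26 probe sets called over the whole array. It turned the sign of 9 of the 43 differences, 6 of them of genes above background in a line (MGST1, SULT1A1, SULT1A4, GSTM4, GSTO1 and GSTO2, all from lower to higher in MCF10.AT1-R).

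Conjugation also needs its donors, the pumps that carry the products out and the factors that control these genes. Of 64 such genes in 6 lists, 42 passed the filter and none was called by limma. At an unadjusted p under 0.05 there were 6 of the 42, against 8.26% of all probe sets tested. With a variance that follows the level 5 were called, among them SLC7A11, GSR, UGDH and ABCC3, which were lower in MCF10.AT1-R, against 1377 (2.68%) over the whole array, and with the filter on low values alone and that variance model these 4 were, against 1086 (1.6%). The median difference of the 64 was 0.00, with 32 of them above 0. Of these genes 47 were above background in a line.

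The 13 genes of glutathione supply ranged from -1.0 to 0.48. GSR, the reductase that regenerates glutathione, read 6.95 and 6.73 on A01 and A02 and 5.67, 5.87 and 5.97 on B02, B03 and B04, a difference of -1.0 (SE 0.31, 95% interval -1.61 to -0.39, adjusted p = 0.082). SLC7A11, the cystine carrier, read 8.23 and 8.15 against 7.40, 6.96 and 7.34, a difference of -0.96 (adjusted p = 0.119). Both were lower on all 3 resistant arrays with no overlap. The synthesis genes GCLC, GCLM and GSS overlapped between the lines, with -0.09, -0.06 and -0.02. OPLAH, which returns oxoproline to glutamate, had the largest positive value of this list, 0.48.

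Among the 4 genes of UDP-glucuronic acid supply, UGDH, which makes the donor that UGT1A1 uses, read 9.35 and 9.25 on A01 and A02 and 8.52, 8.53 and 8.73 on B02, B03 and B04. It was lower on all 3 resistant arrays, by 0.71 in size (difference -0.71, 95% interval -1.32 to -0.10, adjusted p = 0.448). UGP2, one step before it, differed by 0.57, with all 3 resistant arrays higher (adjusted p = 0.656). In the list of 8 genes for sulfate donor supply and sulfate removal, PAPSS1, which makes PAPS, read 4.87 and 4.57 against 5.45, 5.29 and 5.86, a difference of 0.82 (95% interval 0.21 to 1.43, adjusted p = 0.285), and the steroid sulfatase STS differed by -0.30 with overlap. Neither the donor genes of glucuronidation nor those of sulfation were called.

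Of the 7 export pump genes, ABCC3, a carrier of glucuronides, read 9.04 and 8.89 on A01 and A02 and 8.24, 8.42 and 8.21 on B02, B03 and B04, a difference of -0.68 (95% interval -1.29 to -0.07, adjusted p = 0.492), with no overlap. ABCC2 had the largest positive value of the pumps, 0.25. Of the 16 other conjugating enzymes, the thiopurine methyltransferase TPMT differed by 0.54 (adjusted p = 0.692) and ACSM1, not above background, by -0.64. The 16 receptors and regulators ranged from -0.43 for ESR1, not above background in a line, to 0.48 for BACH1, a repressor of antioxidant response genes. NFE2L2, KEAP1 and AHR, which encode NRF2, its inhibitor and the aryl hydrocarbon receptor, overlapped between the lines, with 0.16, -0.14 and 0.09, and the nuclear receptors NR1I2 and NR1I3 were not above background.

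**Figure D3:**
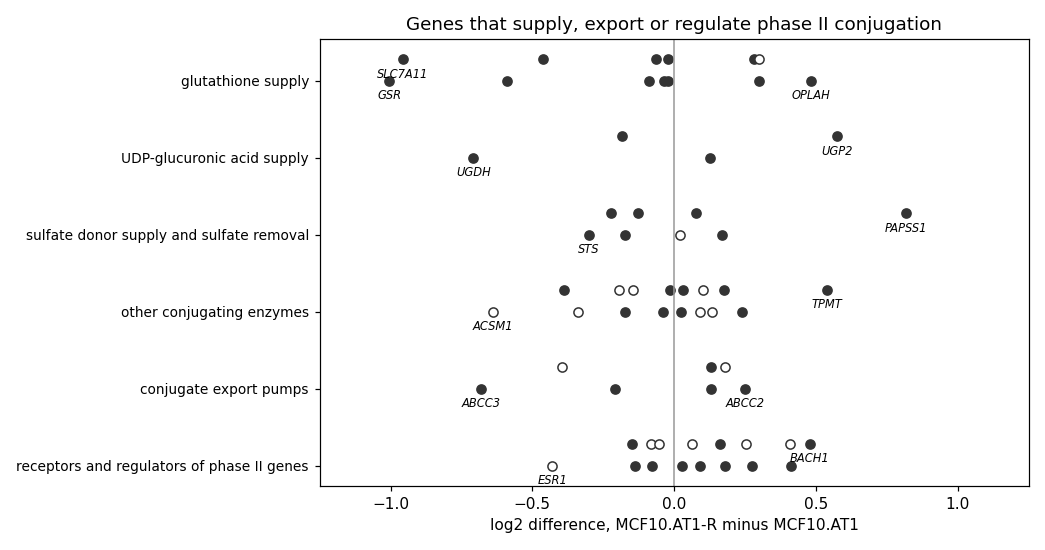
The log2 difference between the lines (x axis, MCF10.AT1-R minus MCF10.AT1, 2 against 3 arrays, no error drawn) is plotted for the 64 genes that supply, export or regulate conjugation, by list (y axis), filled where the gene was above the negative controls in at least 1 line. Values run from -1.0 for GSR to 0.82 for PAPSS1, and none passed FDR 5%.

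The plot of the companion genes shows values on both sides of 0 in each list.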

How the data were processed

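RNA from 3 samples of each cell line was hybridised to Clariom D arrays. The authors deposited log2 expression values, 1 per probe set and array, made by RMA with the Bioconductor packages affy and oligo, over all 6 arrays and before any removal of low or invariant genes, a step the methods describe. Background correction and quantile normalization bring the arrays to 1 distribution, so that differences are relative to the other probe sets. The array annotation and genome build are not given in the sources used here. The table names arrays by letter and number, and their lines were taken from the key of the study's principal component plot (A sensitive, B resistant). No replicate number of the labels is carried by a column, and no column of per-sample values was left unmapped.

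The 2995 control probe sets were left out of the comparison, and 135750 transcript probe sets remained, of which 86161 carry a symbol. A03 was left out, as in the study. The limits of the filter are not in the methods, and here a probe set was kept when its mean over the 5 arrays exceeded the median of all (1.88) and its SD exceeded the lowest 25% (0.18). The fit used lmFit and eBayes (limma 3.58.1, R 4.3.3), two-sided, with Benjamini-Hochberg adjustment over all probe sets tested, and 95% intervals. The script was tested on simulated data. Tables and figures were made with pandas 2.3.3 and matplotlib 3.10.9. Values come from a fit without filter for genes the filter removed. A lower bound of a fold counts a value under the 95th percentile of its array's negative controls at that percentile.

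The genes, the lists and the tests were chosen with earlier results of these data known. Genes named with every array are those called at FDR 5%, those above background in a line with arrays that do not overlap and a difference of 0.5 or more in size, and the one with the highest mean in each family. In the companion lists these are the called genes and those with the largest rise and fall. MGST1 (given with every array), GSTO2, GSTM2 and other genes given only by their difference, and SLC7A11, GCLC, GCLM, GSS, NFE2L2, KEAP1 and AHR, were named after their values had been seen. The alternatives changed the arrays used, the filters, the variance model, the normalization, array weights, the handling of several probe sets and of low values, and the detection limit. The filter on low values with a variance that follows the level, and the common floor at a log2 value of 2.99, were chosen after seeing the data. Promoter sequences are those of RefSeq, GRCh38.p14. With 2 against 3 arrays, precision is limited by their number. The p-values of the main fit rest on the SD of 0.34 common to all tested probe sets, and not on the spread of each gene's own arrays. All arrays of a group come from 1 line. Marker lists of basal and luminal breast epithelium, hepatocytes, cornifying keratinocytes, fibroblasts and leukocytes were tallied, 8 or 10 genes each. Some members of the companion lists are counted and not reported here as single genes. Of the fibroblast and leukocyte markers 1 each was called lower in MCF10.AT1-R (DCN, with a difference of -2.15, and CD14, with -1.12). In these lists 3 and 4 markers were tested, and 0.447% of all probe sets tested were called lower.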

Additional observations from a re-analysis of the deposited data

Results flagged for a closer look

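Array A03 lay outside the comparison, and 2 alpha-class genes exceeded its negative-control limit of 3.15 there while lying above all 5 other arrays. GSTA4 read 4.30 on A03, against 3.03 and 3.48 on A01 and A02 and 2.83 to 3.31 on the resistant arrays. GSTA1, an alpha-class enzyme of liver, read 3.91 on A03 and 1.86 to 2.36 on the other 5 arrays, all under their limits. The signal rests on 1 array that correlated with the others at 0.779 to 0.795, and its part in these values was not tested.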

How the results depend on the processing

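Of the 3 calls, UGT1A1 alone remained with the filter on low values alone (1 of the 43 genes, 182 over the whole array) and with no filter (1 and 177), and 0 of the 43 with A03 added (26 over the whole array, 9 of the 43 differences with turned signs, among them SULT1A4 at 0.28, GSTM4 at 0.48, GSTO1 at 1.89 and MGST1 at 1.98). With a variance that follows the level 1377 were called over the whole array and 5 of the companion genes, with the filter on low values alone and that variance 1086 and 4, with 1 common floor 243 over the whole array. Averaging the probe sets of a symbol and raising values to the limit of their array called 1 companion gene each, GSR. Leaving out 1 array gave 271 (without A02) to 595 calls over the whole array, with 314 without A01, and a median difference of the 43 genes of -0.0162 to 0.0505. That median was 0.16 with A03 added and -0.15 with values raised to the limit of their array, a setting whose limits differ between arrays. The cause of these changes was not tested, beyond the construction of each setting. Small differences of genes near or under the limit also changed sign. Leaving out 1 array gave -0.0873 to 0.101 for UGT2B4, -0.329 to 0.12 for GSTA4, -0.423 to 0.0853 for GSTM4 and -0.564 to 0.301 for GSTZ1, and UGT2B4 was -0.000123 with array weights and -0.15 with values raised to the limit of their array. The number of genes above background in a line was 11 with the 99th percentile of the negative controls and 17 when the median over the 5 arrays was used, against 16. No paired analysis was possible because the columns carry no replicate number of the labels. For genes under the negative-control limit the arrays give only a bound.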
